A study of Caenorhabditis elegans with 2 samples.

Results

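The 8 genes described here encode transcription factors of the stress responses of the nematode Caenorhabditis elegans: hif-1, hsf-1, skn-1, atfs-1, hlh-30, pqm-1, xbp-1 and dve-1. They are 8 of the 19973 protein-coding genes on the nuclear chromosomes. The genes were chosen by name, with earlier results of these data known, and the strong peak near hif-1 was chosen by its signal, so its height is a description. Binding of the nuclear hormone receptor NHR-71 around them was read from peak lists of chromatin immunoprecipitation with sequencing (ChIP-seq), in which DNA bound by a tagged protein is enriched with an antibody and sequenced. Each gene was given a window of its body and the 5000 bp upstream of its annotated start, in the ce11 build (WBcel235).

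There was 1 group, of 2 biological replicates. Both were whole hermaphrodite L1 larvae of strain OP480 (unc-119(tm4063) III; wgIs480), an integrated line in which NHR-71 carries a GFP-FLAG tag at its C terminus. The larvae had been starved after bleaching and were taken 6 h after synchronization, and the precipitation used an antibody against GFP on sonicated chromatin. Binding in any one cell type cannot be told apart from binding in another in whole larvae, and neither untagged larvae nor gene expression was analysed here.

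The irreproducible discovery rate (IDR) procedure judges how alike peaks rank in replicates. The IDR list held 8540 peaks, each with a summit (its highest point) and a signal given by the authors. These are the 8540 strongest positions of the pooled list. Being listed thus does not by itself show that a peak ranked alike in both replicates. Each replicate list and the pooled list ended at 30000 positions. Peaks are ranked and set against each other only within a list, from the highest signal. A summit's value in one replicate is set beside its value in the other, with their log2 ratio. The lists hold no read counts, so the depth is unknown, and 2 replicates limit the precision of every value.

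Stress responses in worms run through a few transcription factors that are held inactive, degraded or kept out of the nucleus until damage or deprivation releases them. HIF-1 answers low oxygen, HSF-1 heat and misfolded cytosolic proteins, and SKN-1 oxidants and foreign chemicals. ATFS-1 and DVE-1 answer mitochondrial stress, XBP-1 stress of the endoplasmic reticulum, HLH-30 starvation through autophagy and lysosome genes, and PQM-1 acts beside the insulin-regulated factor DAF-16.

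The strongest summit at each of the 5 genes with a peak of signal above 500 is shown by the 201 bp centred on it, so that the letters under the highest points can be compared. Each is written in the direction of its gene, from the RefSeq copy of WBcel235. The windows are chrV:20778320-20778520 (plus strand) for hif-1, chrIV:5657160-5657360 (minus strand) for skn-1, chrIII:4193683-4193883 (plus strand) for xbp-1, chrV:14193511-14193711 (plus strand) for atfs-1 and chrIV:4028249-4028449 (minus strand) for hlh-30. Capitals mark every match, on either strand, to 11 short words: sites read by nuclear receptors, GATA factors, bZIP factors, SKN-1, HIF-1, HSF-1 and E-box factors, and simple repeats of GA, of CG and of T. Each word is spelled out with the share of windows that hold it.
hif-1: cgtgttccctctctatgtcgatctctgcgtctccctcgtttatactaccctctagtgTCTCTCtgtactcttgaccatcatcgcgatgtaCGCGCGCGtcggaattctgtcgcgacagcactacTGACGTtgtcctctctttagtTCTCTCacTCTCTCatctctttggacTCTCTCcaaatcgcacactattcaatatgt
skn-1: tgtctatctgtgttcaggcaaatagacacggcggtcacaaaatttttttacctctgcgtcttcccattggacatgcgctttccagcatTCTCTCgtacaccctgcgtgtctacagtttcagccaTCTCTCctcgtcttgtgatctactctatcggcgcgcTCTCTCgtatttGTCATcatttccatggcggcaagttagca
xbp-1: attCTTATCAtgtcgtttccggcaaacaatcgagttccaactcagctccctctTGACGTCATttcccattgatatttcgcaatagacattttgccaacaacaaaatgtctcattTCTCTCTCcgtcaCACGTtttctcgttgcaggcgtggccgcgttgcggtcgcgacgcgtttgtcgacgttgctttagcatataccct
atfs-1: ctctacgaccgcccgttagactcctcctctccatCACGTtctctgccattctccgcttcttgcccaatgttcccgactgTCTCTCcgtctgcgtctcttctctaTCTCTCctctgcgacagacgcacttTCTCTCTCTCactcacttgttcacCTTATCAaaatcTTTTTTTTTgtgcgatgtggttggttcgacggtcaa
hlh-30: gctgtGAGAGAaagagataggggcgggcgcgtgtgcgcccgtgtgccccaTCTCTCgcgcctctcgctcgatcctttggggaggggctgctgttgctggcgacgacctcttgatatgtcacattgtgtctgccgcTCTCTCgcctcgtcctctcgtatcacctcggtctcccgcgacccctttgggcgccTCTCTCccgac

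NHR-71 peaks lay around 7 of the 8 genes, with 26 IDR summits in all. Among all protein-coding genes, 41.8% had a summit in the same kind of window. At least 5 summits were present at 3 of the 8 genes (hif-1 with 5, skn-1 with 6 and hlh-30 with 10), against 1.42% of all genes. The 8 windows are longer than usual, with a median of 10816 bp (6550 to 25159 bp) against 7027 bp for all genes. Per kb of window there were 0.264 summits for the 8 genes summed and 0.0886 for all genes. The rate differed among the 8: 0.507 at hif-1, 0.418 at skn-1, 0.397 at hlh-30 and 0.305 at xbp-1. It was 0.139 at pqm-1, 0.111 at atfs-1, 0.0849 at dve-1 and 0 at hsf-1. The genes were chosen with results known, so no test was made of these differences.

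**Figure D1:**
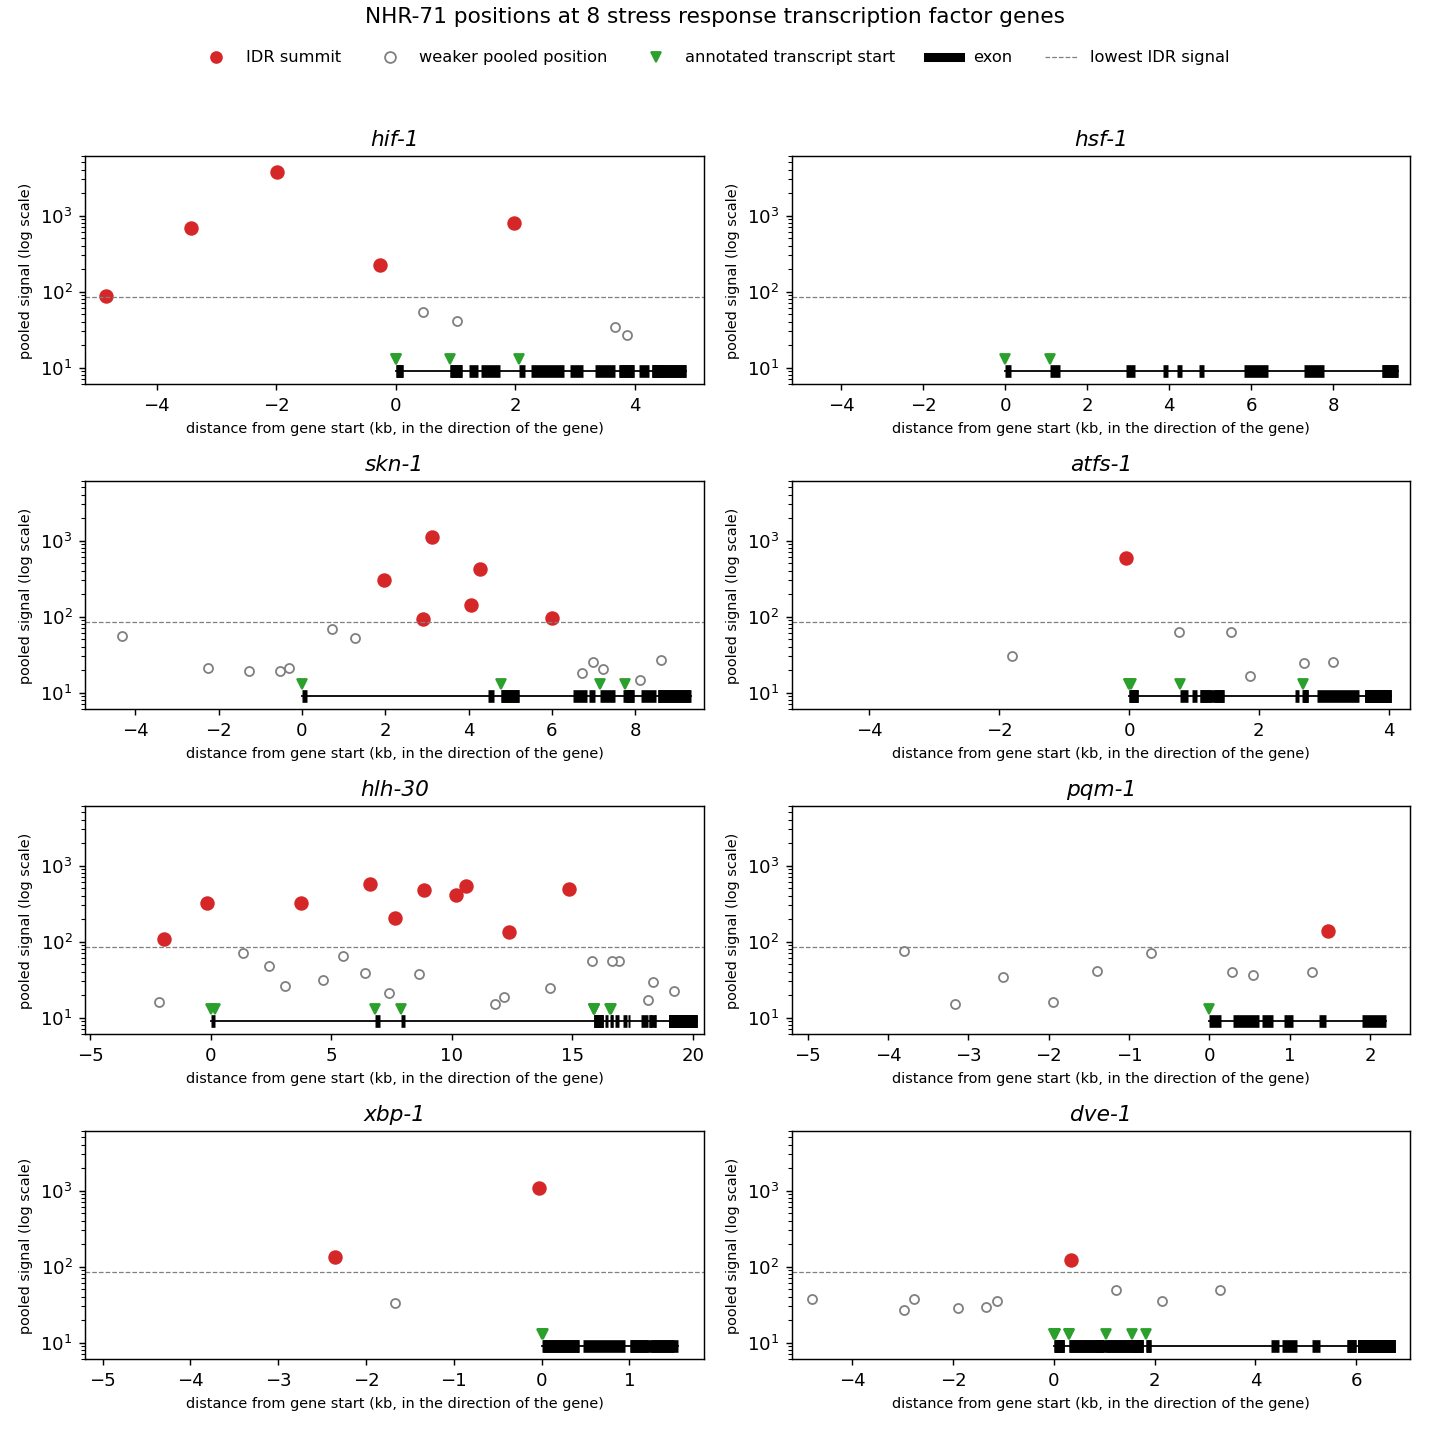
IDR summits around the 8 genes, 1 panel each: distance from the gene start (kb, negative upstream) on the horizontal axis and pooled signal on the vertical log axis. The hif-1 summit of signal 3770 stands above all others, skn-1 and hlh-30 carry their summits mainly in introns, and hsf-1 has none.

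HIF-1 is the oxygen-regulated factor that pairs with AHA-1 and is hydroxylated by EGL-9 and then degraded through VHL-1 when oxygen is present. Its gene (WBGene00001851, chrV:20780407-20785260, plus strand) is transcribed away from its neighbour F38A6.4, 5037 bp away, and the stretch between them held 4 of the 5 summits. The strong peak sits there, 1987 bp upstream of hif-1 and 3051 bp from the start of F38A6.4, over chrV:20778028-20778835. Its signal was 3770 in the pooled list, rank 15 of 8540, with 1935 in replicate 1 (rank 20) and 1838 in replicate 2 (rank 14). The replicates therefore placed it alike, at a log2 ratio of replicate 2 over replicate 1 of -0.07.

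The other 4 summits of the hif-1 window were much lower. In pooled signal the strong peak was 4.74 times the next, a summit of 796 in an intron 1976 bp past the gene start (419 in replicate 1 and 375 in replicate 2), and this ratio was 4.62 in replicate 1 and 4.90 in replicate 2. That intronic summit lies 89 bp upstream of the start of the shorter transcript F38A6.3c.1. A summit of signal 684 lay 3433 bp upstream (334 in replicate 1 and 355 in replicate 2), and its nearest protein-coding start is that of F38A6.4. The peak closest to the hif-1 start, 272 bp upstream, had a signal of 222 (86 in replicate 1 and 138 in replicate 2), so the strong peak was 17 times as high as the one at the promoter in the pooled list, 22.5 times in replicate 1 and 13.3 times in replicate 2. The fifth summit, 4848 bp upstream of hif-1 but 190 bp from the start of F38A6.4, was close to the weakest IDR signal at 87.1 (34.2 in replicate 1 and 55.5 in replicate 2).

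The 2 IDR peaks just above the strong hif-1 peak in signal were 575 bp upstream of egg-5 (3965) and in an intron (3812). The nearest start to the intronic one was that of epg-9, at 1027 bp. The 2 peaks just below the hif-1 peak were 498 bp upstream of epn-1 (3767) and in an intron (3720). The nearest start to this second intronic peak was that of pqn-41, at 15449 bp. The hif-1 peak thus lay between genes, as those of egg-5 and epn-1 did, but farther upstream of its nearest start than these.

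SKN-1, the worm relative of the Nrf factors, drives detoxification genes and also specifies gut and pharynx precursors in the embryo. Its gene (WBGene00004804, chrIV:5651039-5660384, minus strand) has 4 annotated transcript starts, and all 6 summits of its window lay in introns, with none within 1000 bp upstream of the gene start. The highest, 3124 bp past the start over chrIV:5657015-5657631, had a signal of 1119 (rank 403), with 592 in replicate 1 and 530 in replicate 2. The next, 4261 bp past the start, had 419 (222 in replicate 1 and 209 in replicate 2) and is 518 bp upstream of the start of the short transcript T19E7.2c.1. Both replicates gave the same order for these 2 peaks.

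The remaining skn-1 summits were weaker. The one 1966 bp past the start had 306 (162 in replicate 1 and 144 in replicate 2), and the one at 4057 bp had 143 (60.7 and 64.6 in replicates 1 and 2). Those at 5998 bp (96.6; 44.5 and 52.2 in replicates 1 and 2) and 2907 bp (92.9; 106 and 84.0) were near the lowest signal in the IDR list, 84.1. The one at 2907 bp shares its interval with the highest skn-1 peak and lies in the non-coding RNA gene T19E7.27, and the one at 5998 bp lies in clec-178, which overlaps skn-1. Just beyond the 5000 bp limit, at 5198 bp upstream, a summit of 261 had bec-1, an autophagy gene, as its nearest start.

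HLH-30, the worm TFEB, turns on autophagy and lysosome genes in starvation and is held in the cytoplasm when nutrients are present. The gene (WBGene00020930, chrIV:4014793-4034951, minus strand) spans 20159 bp with 10 annotated transcript starts, and its 10 summits were the most of the 8 genes, though its window is also the longest of them. Of these, 8 lay in introns and 2 upstream. The highest, 6602 bp past the gene start over chrIV:4028133-4028562, had a signal of 567 (rank 1211; 299 in replicate 1 and 270 in replicate 2) and lies 222 bp upstream of the starts of W02C12.3b.1 and W02C12.3c.1. The next was close to it in signal, whereas at hif-1 the next was far below the highest.

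A pair of summits at 10612 bp (532; 314 in replicate 1 and 232 in replicate 2) and 10167 bp (414; 134 and 233) past the start shared 1 interval of 912 bp. At the second of them, replicate 1 had another covering position of 198, so its low replicate 1 value rests on which position is taken. The summit at 14880 bp had 494 (292 and 203 in replicates 1 and 2) and that at 8870 bp had 471 (280 and 194). The summit 133 bp upstream of the gene start had 321 (166 and 156), close to the 318 of the summit at 3763 bp (156 and 161). The promoter peak of hlh-30 was thus lower than 5 of its intronic peaks. The last 3 were weaker: 203 at 7631 bp (126 and 82.8), which is 257 bp upstream of W02C12.3d.1 and W02C12.3e.1, 134 at 12374 bp (83.2 and 52.7), and 108 at 1921 bp upstream (56.4 and 51.9). Outside the window, 216 bp past the gene's end, an IDR summit had 117 (42.7 and 72.9).

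At atfs-1 and xbp-1 the peak lay on the promoter. ATFS-1 is imported into healthy mitochondria and degraded there, and goes to the nucleus when import fails. Its gene (WBGene00013878, chrV:14193663-14197700, plus strand) had 1 summit, 52 bp upstream of the start over chrV:14193381-14193755, with a signal of 583 (rank 1159), and 336 in replicate 1 and 251 in replicate 2. A further IDR summit of 180, outside the window, lay 53 bp past the gene's end. XBP-1 is made in active form after its RNA is spliced by IRE-1. Its gene (WBGene00006959, chrIII:4193809-4195358, plus strand) had a summit 26 bp upstream of the start over chrIII:4193548-4194009, with a signal of 1089 (rank 433), and 563 in replicate 1 and 524 in replicate 2.

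The second xbp-1 summit, 2353 bp upstream, was weak at 135 (51.4 in replicate 1 and 87.0 in replicate 2) and lies in an intron of the neighbouring gene dnj-16, 315 bp past its start. Past the 3′ end of xbp-1, outside the window, 2 more IDR summits had signals of 485 (166 bp past the end) and 507 (1434 bp past the end, nearest to the start of asd-1). So the short xbp-1 gene had peaks on both sides.

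DVE-1 and PQM-1 had 1 weak summit each. DVE-1 is a homeodomain protein that acts with ATFS-1 in the mitochondrial response. The summit at its gene (WBGene00022861, chrX:427035-433812, minus strand) lay 336 bp past the gene start in an untranslated exon, 24 bp downstream of the start of ZK1193.5c.1, with a signal of 123 (rank 6412), and 44.0 in replicate 1 and 79.1 in replicate 2. Replicate 1 had 2 overlapping positions there, and the stronger had 77.9, so the replicate gap rests on which of them is taken. PQM-1 is a zinc finger factor that leaves the nucleus as DAF-16 enters it. Its gene (WBGene00004096, chrII:11150391-11152595, minus strand) had an intronic summit 1478 bp past the start with a signal of 138 (rank 5768), with 67.9 in replicate 1 and 67.6 in replicate 2.

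The pqm-1 window also held the strongest position of the 8 windows that missed the IDR list, with a signal of 74.1, at 3798 bp upstream. Just outside that window, 5307 bp upstream in an intron of ptr-13, an IDR summit had 335 (199 in replicate 1 and 133 in replicate 2). Past the other end of the gene, 287 bp beyond it in a coding exon, an IDR summit had 128 (61.4 in replicate 1 and 69.1 in replicate 2), with pqm-1 as its nearest start. The weakest summit inside any of the windows was the 87.1 of hif-1.

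HSF-1 is the heat shock factor, which induces chaperone genes. No IDR summit, pooled position or position of either replicate list of 30000 lay in its window (WBGene00002004, chrI:11953507-11963085, minus strand). An empty window in the pooled list was found for 43.3% of all protein-coding genes. That share is not matched for length: the hsf-1 window is 14579 bp long, against a median of 7027 bp over all genes. The pooled summits on either side were 27796 bp apart, and the same gap was 26603 bp in replicate 1 and 27018 bp in replicate 2. These gaps were measured because the window was empty, so they had to be longer than it. Of the 29994 gaps between neighbouring pooled summits, with a median of 1085 bp, 663 (2.21%) were at least as long. In the IDR list the gap was 38587 bp, and 598 of 8534 gaps (7.01%) were at least as long. The nearest pooled position past the gene's end was 2542 bp away with a signal of 31.4, and the nearest on the start side was 15676 bp upstream with 234.

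**Figure D2:**
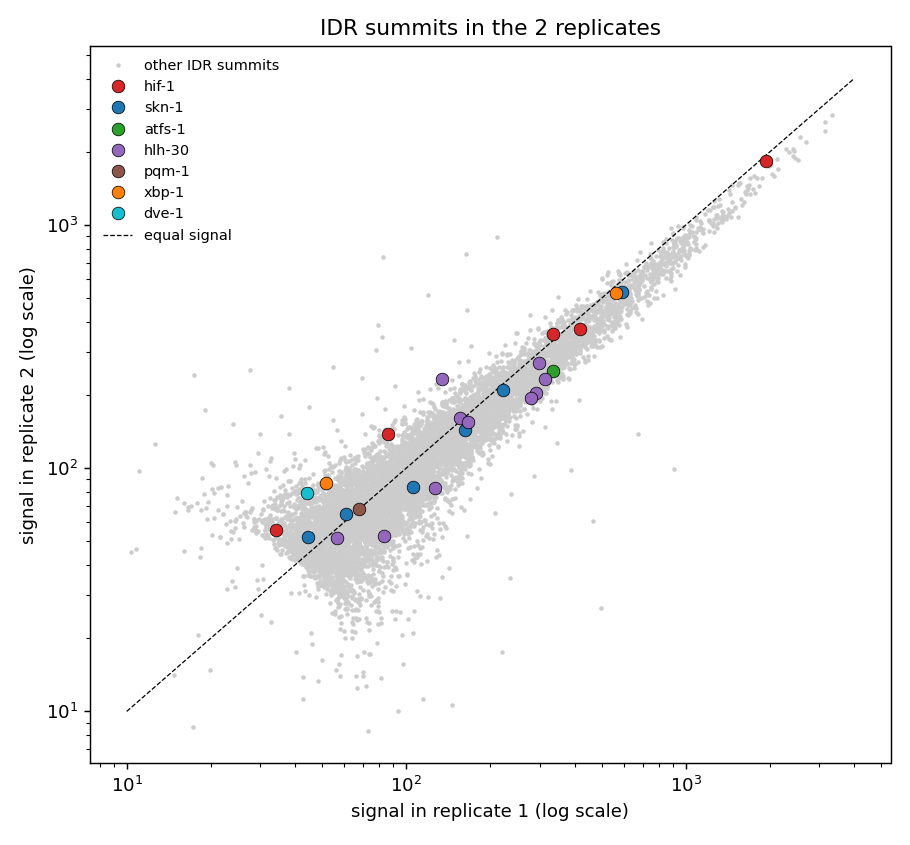
Signal in replicate 1 (horizontal, log scale) against replicate 2 (vertical, log scale) for the 26 summits around the 8 genes in colour and for the other IDR summits in grey. The coloured points follow the grey cloud, with the strong hif-1 peak (1935 and 1838) at its upper end.

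All 26 summits were covered by a position in both replicate lists, as were 8426 of the 8540 IDR summits. The log2 ratio of replicate 2 over replicate 1 had a median of -0.10 (SD 0.44, n = 26; -0.66 to 0.85) for these summits and -0.12 (SD 0.49, n = 8426) for all IDR summits, so the summits around the stress genes varied between replicates about as much as the rest. Their median pooled signal was 320 (87.1 to 3770), against 194 (84.1 to 6143) over all IDR peaks. Ranks of 4270 or better, which 4270 of the 8540 IDR peaks hold, were held by 17 of the 26. Ranks of 854 or better, which 854 of the 8540 hold, were held by 4 of the 26. These 4 were the hif-1 peaks at 1987 bp upstream and 1976 bp downstream and the highest peaks of skn-1 and xbp-1. Neither count was tested, and the 4 are few.

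**Figure D3:**
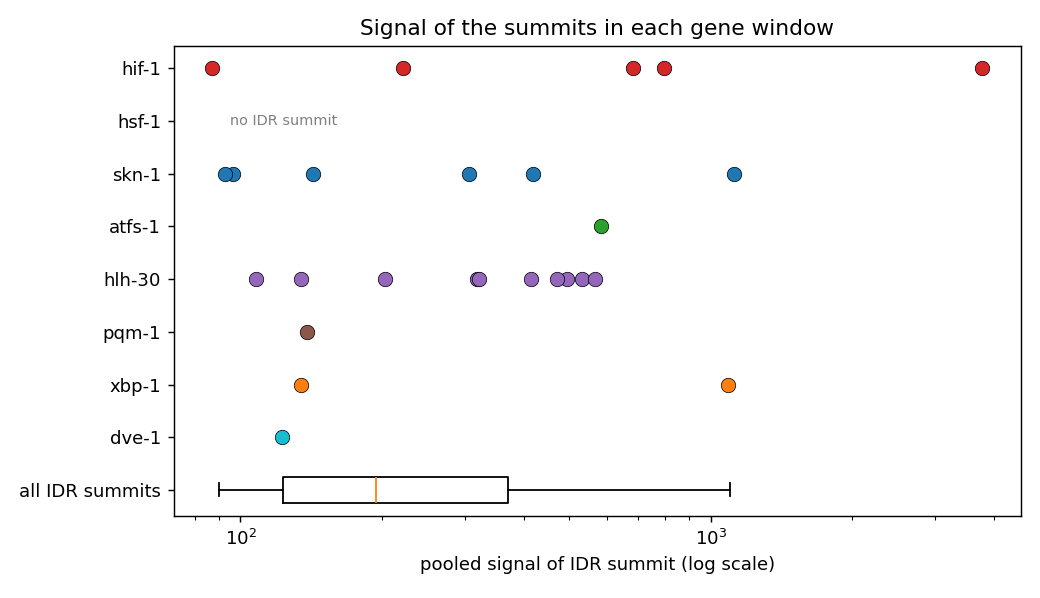
Pooled signal (log scale) of every IDR summit in each gene window, 1 row per gene and 1 point per summit, with all 8540 IDR summits as a box (quartiles and median, whiskers from the 5th to the 95th percentile). Only the strong hif-1 peak of 3770 passes 2000, and pqm-1 and dve-1 lie below the median of 194.

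The windows favour positions within genes, since the bodies of the 8 genes make up 59.4% of the window length, while the IDR summits as a whole carry no such limit. Introns held 17 of the 26 (65.4%), against 26.3% of all IDR summits, and stretches between genes held 8 (30.8%), against 65.3%. An untranslated exon held 1 (3.85%, against 5.43%), and coding exons held none, against 2.97% of all IDR summits. For 19 of the 26, the nearest protein-coding start was that of the stress gene itself. The windows are drawn around these genes and no such share over all genes is given, so this count only describes the 26. The intron share is weighted by hlh-30 and skn-1, which together gave 14 of the 17.

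A summit between 1000 bp upstream and 200 bp downstream of the gene start, called a promoter summit here, was present at 4 of the 8 genes (hif-1, atfs-1, hlh-30 and xbp-1), against 20.8% of all protein-coding genes. Counting the start of any annotated transcript added skn-1 and dve-1, giving 6 of 8 against 22.6% of all genes. These 6 include genes with up to 10 annotated starts, and each further start gives another window in which a summit can fall.

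The base composition under the summits was a little richer in G and C, with a median of 45.0% (28.4 to 64.2%) for the 26 windows of 201 bp and 40.8% for all IDR summits. Of the 11 words searched, GAGAGA, a GA repeat, was in 14 of the 26 windows (53.8%, against 38.1% of all 8540 windows) and in each of the 5 windows printed above. TGACGT, a word read by bZIP factors, was in 6 (23.1%, against 11.9%), and GATAAG, read by GATA factors, in 7 (26.9%, against 12.2%). Of those 7, 5 held the longer TGATAAG (19.2%, against 6.84%), which contains GATAAG and is the DAF-16 associated element read by PQM-1. XBP-1 and ATFS-1 are bZIP factors, but the windows with TGACGT were at hif-1, skn-1, hlh-30 and xbp-1, and the atfs-1 window lacked it. At 5 to 14 windows, each of these shares rests on few sites.

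The hypoxia, E-box, heat shock and SKN-1 words lay near their shares in all windows. ACGTG, the core of the hypoxia response element, was in 8 of 26 (30.8%, against 28.2%) but not in the window of the strong hif-1 peak. CACGTG, the E-box read by factors such as HLH-30, which contains ACGTG, was in 3 (11.5%, against 9.95%). TTCNNGAA, the core of the heat shock element, was in 3 (11.5%, against 9.73%), and GTCAT, the core read by SKN-1, was in 10 (38.5%, against 32.6%). CGCGCG was in 3 (11.5%, against 5.06%) and TTTTTTTT in 2 (7.69%, against 13.6%). AGGTCA, the site of many nuclear receptors, was in none of the 26 and in 7.0% of all windows. For words in 3 windows or fewer, AGGTCA among them, the windows are too few for a difference to be read. Every word was read on both strands, and TGACGT overlaps GTCAT where they form TGACGTCAT.

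In the printed windows, that joint form stands 47 to 39 bp before the xbp-1 summit. The xbp-1 window also has TGATAAG 97 to 91 bp before the summit and ACGTG 27 to 31 bp after it. The hif-1 window has TGACGT 24 to 29 bp after its summit, 4 copies of GAGAGA and a CG repeat 10 to 3 bp before its summit. The skn-1 window held GTCAT beside its copies of GAGAGA, and that of hlh-30 held GAGAGA alone, while that of atfs-1 held TGATAAG 53 to 59 bp after its summit, the hypoxia core 66 to 62 bp before it, and a run of T. These matches are letters in the reference sequence and were not tested for binding.

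The pathways around the 8 factors were read from 14 lists of named regulators and targets. Of the 153 listed genes, each counted once, 90 (58.8%) had a promoter summit, against the 20.8% of all protein-coding genes. Genes on the lists of targets (42 of 68, 61.8%) and genes on the other lists (48 of 85, 56.5%) had similar shares. The insulin list, which mixes regulators and targets, was counted among the other lists. The lists were written with earlier results known, so these shares were not tested.

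In the hypoxia pathway, 7 of 10 regulators and partners had a promoter summit, the highest being at elb-1, the elongin B of the VHL-1 ligase (556, at a start shared with Y41C4A.11 and Y41C4A.9), aha-1, the partner of HIF-1 (370, shared with C25A1.15), and rhy-1, an inhibitor of HIF-1 (241). Of its targets, 4 of 9 had one, led by gbh-2 (562), the nuclear receptor gene nhr-57 (511) and sqrd-1, which oxidizes sulfide (120). These are signals of promoter summits, and the promoter summit of hif-1 itself had 222. The strong hif-1 peak of 3770 lies outside the promoter window and was chosen by its signal, so it is not set against them.

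In the heat shock pathway, among 5 regulators, 1 had a promoter summit, sir-2.1 (367), the relative of the mammalian deacetylase SIRT1, and hsf-1 itself had none. Of 12 targets, 7 had one, led by hsp-1, the main cytosolic Hsp70 (2996; 1536 in replicate 1 and 1455 in replicate 2), dnj-13, an Hsp40 (1844, shared with F54D5.9), and hsp-110 (1745, shared with rpn-3). Some of these 7 targets share a peak with each other, so they rest on fewer than 7 peaks.

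For SKN-1, 4 of 11 regulators had a promoter summit, led by wdr-23, the adaptor that sends SKN-1 for degradation (1026), its cullin cul-4 (553) and xrep-4 (147). Of 9 targets, 5 had one, led by the glutathione transferase genes gst-5 (424), gst-7 (182) and gst-12 (129). In the mitochondrial response, 7 of 11 regulators had one, led by the acetyltransferase gene cbp-1 (3130), the demethylase gene jmjd-1.2 (1627, shared with F29B9.11) and the SUMO gene smo-1 (459). Of 8 targets of ATFS-1, 5 had one, led by the mitochondrial chaperone genes hsp-60 (2855, shared with Y22D7AL.10) and hsp-6 (788, shared with C37H5.5) and by gpd-2 (425).

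For HLH-30, 7 of 9 regulators had a promoter summit, led by the folliculin gene flcn-1 (414, shared with F22D3.4), the nuclear exporter xpo-1 (393, shared with uvs-1) and mxl-3, a repressor of lysosomal genes (380). Of 16 targets, 11 had one, led by the autophagy genes lgg-2 (2978; 1632 in replicate 1 and 1363 in replicate 2) and lgg-1 (1427) and the proton pump gene vha-15 (681). In the insulin pathway around PQM-1, 5 of 11 had one, led by the kinase gene akt-2 (738), the FOXO gene daf-16 (591) and the phosphatase gene daf-18 (128, shared with garr-1).

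For the endoplasmic reticulum response, all 6 genes on the list of sensors, branch factors and related genes had a promoter summit. They were led by atf-4 (839, shared with WBGene00303075), atf-6 (760) and pek-1 (645). Of 14 targets of XBP-1, 10 had one, led by the chaperone genes hsp-3 (2238), crt-1 (1906) and pdi-3 (1456, shared with ubql-1). Among other factors of stress and immunity, 17 of 28 had one, led by the bZIP genes cebp-1 (1095) and crh-1 (875) and the nuclear receptor gene nhr-49 (905). Where a peak lies at a start shared by neighbouring genes, it counts for each of them.

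**Figure D4:**
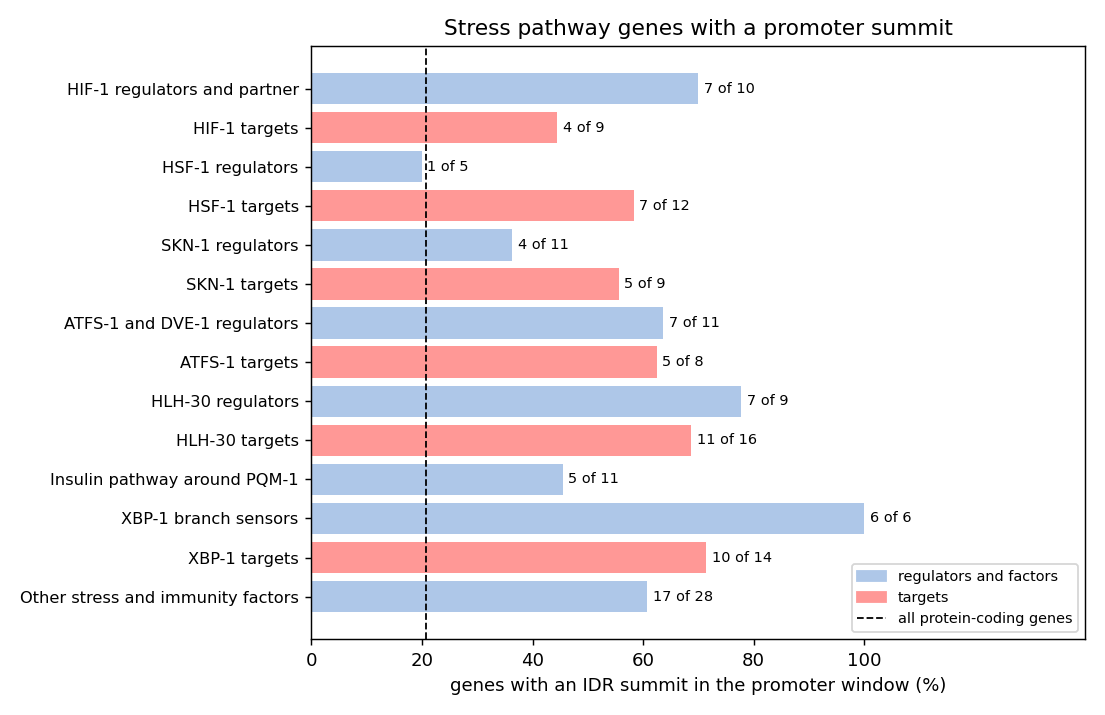
Share of genes with a promoter summit (percent, horizontal axis) for 14 lists of stress pathway genes, with counts beside the bars. The dashed line is the 20.8% of all protein-coding genes, and the list of HSF-1 regulators, at 1 of 5, is the only one that does not pass it.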

How the data were processed

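NHR-71 ChIP-seq peak lists of 2 replicates of L1 larvae were analysed on ce11. The authors deposited a signal per position for each replicate, for the pooled replicates and for the IDR set. Per the submitters' file list, positions were derived from alignments of immunoprecipitated and control reads, and the IDR set from the replicate and pooled lists. Aligner, caller, threshold for IDR and signal scale were not given in the sources used here. Lists on ce10 and the control were not used here.

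Summits were joined to genes of Ensembl release 115 with Python 3.11.15, NumPy 2.4.6 and pandas 2.3.3, and plots were drawn with Matplotlib 3.10.9. A replicate value is that of the nearest summit among its positions covering the IDR summit. The window counting was tested on simulated data. Words were searched in 201 bp around each summit. The members, the lists and the strong hif-1 peak were chosen with earlier results of these data known, so no test was made. Named genes are every member with its summits, the 3 strongest promoter peaks per list, and the 2 peaks on either side of the hif-1 peak in rank. In 3 cases (hsf-2, hsp-16.11 and hsp-16.49) a listed name had no match in the annotation.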

Additional observations from a re-analysis of the deposited data

How the results depend on the processing

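Of the 26 summits, 17 were left when only the 4270 IDR peaks of higher signal were used, and pqm-1 and dve-1 then had none, leaving 5 genes. With 2000 or 1000 bp upstream there were 23 or 21 summits at the same number of genes, 7. The hif-1 peak ranked 15 in the pooled list and 14 to 20 with 1 replicate left out. With the 8540 strongest positions of 1 replicate in place of the IDR set, the windows held 28 to 30 summits, again at 7 genes, and a promoter summit was present at 4 or 5 genes, pqm-1 being added without replicate 2. Genes of the pathway lists with a promoter summit numbered 90, and 64 to 105 under other windows and peak sets chosen after seeing the data. For the other windows and peak sets of this section, no share of all protein-coding genes is given. The counts under them therefore only describe the 8 genes and the lists. Some word was present at 25 of 26 summits, and at 21 with windows of 101 bp, also chosen after seeing the data. The share of all IDR windows with some word is not given, and GAGAGA alone was in 38.1% of them. The 25 of 26 is therefore not a trait of these genes that was shown here. Without read counts, no counting error can be given, and hsf-1 is without a listed position at this depth, not shown to be unbound. Promoter windows of 500 or 2000 bp upstream left 4 of the 8 genes with a summit, and replicate signals at the strongest summits were the same when matched to the nearest summit within 200 bp. No paired analysis was possible because there is 1 group.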
